A study of Mus musculus with 20 samples.

Results

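The genes of glycolysis, glucose transport and pyruvate kinase control were read in 20 single mouse bone marrow cells. The group holds 32 named genes: the glucose and monocarboxylate transporters, the enzymes from hexokinase to lactate dehydrogenase, the kinases that act on pyruvate dehydrogenase (PDK), the enzymes that make and break fructose 2,6-bisphosphate (PFKFB), Hif1a and G6pdx. They were taken by symbol and matched to the Ensembl identifiers of the count files, which hold 38561 genes. All 32 matched, and 29 of them passed the filter on low counts, as did 11365 genes in all. The clearest pattern was in pyruvate kinase: Pkm was read in 13 cells and had no read in the 7 other cells, while Pklr, the other pyruvate kinase gene, was read in those 7 cells and in no other.

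Every cell came from the bone marrow of C57BL/6J mice and was sorted as lineage-negative and cKit-positive, a gate that holds blood stem and progenitor cells. The 9 CD150+CD48- cells were also sorted as positive for CD150 and negative for CD48, a gate that enriches stem cells, and the 11 CD150- cells as negative for CD150, with no CD48 gate in their label. The labels give no genotype, treatment or age and name no animal, so each group counts as 1 sample and no test between the groups was made. RNA was amplified from each cell by Quartz-Seq, which copies polyadenylated RNA by PCR. The cell codes A and B belong to CD150+CD48- cells and C and D to CD150- cells. The sources do not say what the letters mark, and this cannot be told apart from the sort.

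Glycolysis splits glucose into pyruvate, and lactate dehydrogenase turns pyruvate into lactate, which leaves the cell through monocarboxylate transporters. Most steps have several isoform genes that differ in regulation and tissue. Blood stem cells are known for reliance on glycolysis under the control of HIF-1 and PDK, which keeps pyruvate out of mitochondria. Mature red cells have no mitochondria and live on glycolysis with their own pyruvate kinase, made from Pklr.

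Levels are given as CPM, counts scaled to the cell's total of reads in genes. A cell's own value uses all of its reads. A group level is the mean over cells after each cell was thinned to 660007 gene reads, the lowest total, at which 1 read in 1 cell is 1.52 CPM. The CD150+CD48- cells had 660007 to 3722713 gene reads and the CD150- cells 996440 to 5776125. Folds are ratios of group levels with exact binomial intervals at 95%, and a log2 fold above 0 means a higher level in CD150+CD48- cells, computed after adding 1 CPM to both levels, which understates low genes. Reads here are PCR copies, so intervals cover counting error only and leave out the spread between cells. A difference in level per cell can be fewer cells with the gene or less RNA in each, and cell values are therefore given beside the folds.

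The CD150- cells were not alike. In 7 of them (C6, C9, C10, C12, D4, D5 and D8) the 22 genes of an erythroid list took 0.983% to 2.35% of gene reads, against 0.0158% to 0.306% in the CD150+CD48- cells and 0.0182% to 0.249% in the other 4 CD150- cells (D3, D9, D11 and D12). These 7 cells, set apart after the data were seen because each exceeded every CD150+CD48- cell, are called the erythroid-rich cells below; they are cells and not a group of the study. Of the 22 erythroid genes, 18 to 20 were read in each of them, against 2 to 7 for CD150+CD48- cells and 3 to 10 for the other 4. Sptb, Alas2, Hba-a2, Hbb-bs and Cldn13 had no read in any CD150+CD48- cell. Not every listed gene was highest in the erythroid-rich cells. Hbb-bs was read in 6 of them at up to 268 CPM and reached 570 CPM among the other 4. Alas2 was read in 3 of the 7 and Slc4a1 in none. Trib3 was read in 3 CD150+CD48- cells and in no CD150- cell. Of 21 listed genes past the filter, 20 were at least 2-fold lower in CD150+CD48- cells and 1 higher. The shares of all genes were 27.4% and 21.9%. A list of stem cell genes took 0.0250% to 0.0573% of reads in the erythroid-rich cells, 0.431% to 0.964% in the other 4, and between 0.182% and 0.993% where CD150+CD48- cells were read. A G2/M list took 0.350% to 0.737% in the erythroid-rich cells, at most 0.0249% in the other 4 and at most 0.151% in CD150+CD48- cells. There were 109 to 302 gene reads per ERCC spike-in read in the erythroid-rich cells, 12.7 to 43.8 in the other 4, and among CD150+CD48- cells the number was 22.3 to 109. The part of cell cycle and RNA amount in the differences below was not tested. All CD150- cells with the letter C were erythroid-rich, and the other 4 all had the letter D. Results within the letters A and C therefore compare with erythroid-rich cells only. Those within B and D compare with both kinds, so the letter settings also change the mix of CD150- cells.

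Some libraries of CD150+CD48- cells also stood apart. Unaligned reads made up 80.2% of the file in A10, 66.2% in A11 and 46.3% in B4, which had the fewest gene reads of all cells (660007, 845194 and 730221). In the other CD150+CD48- cells the share was 8.17% to 35.7%, and in CD150- cells 2.49% to 23.6%. Results that rest on these 3 cells are given with and without them.

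Of the 29 genes past the filter, 18 had a higher level in CD150+CD48- cells and 11 a lower one, against 47.1% higher and 52.9% lower among all genes past the filter. At least 2-fold higher were 9 of 29 (Hk2, Gpi1, Pfkp, Aldoc, Gapdh, Eno2, Pkm, Ldhb and Pdk2), against 21.9% of all genes, and 5 of 29 were at least 2-fold lower (Pfkl, Pfkm, Bpgm, Slc16a1 and G6pdx), against 27.4% of all genes. All 14 kept their direction whichever cell was left out, which 17.2% of all genes did while at least 2-fold higher and 25.3% while at least 2-fold lower. The median log2 fold was 0.59, against -0.09 for all genes. Scaling by ERCC reads moved the median of all genes to -0.93 and that of these genes to -0.22, with 7 at least 2-fold higher and 11 at least 2-fold lower, against 15.4% and 48.3% of all genes, and on that scale 18 of 29 lay above the median of all genes. With A10, A11 and B4 left out, 8 genes were at least 2-fold higher and 5 lower, against 21.7% and 27.6% of all genes, with a median log2 fold of 0.53. Gpi1 (0.78), Ldhb (0.94) and Pfkm (-0.75) then fell short of 2-fold, and Pdk1 (1.37) and Hif1a (-1.64, from 0.61) passed it. These cells were singled out after their values were seen, and the part of library quality in the differences was not tested. The other 11 stayed at least 2-fold different in the same direction, with Pfkp at 1.70, Eno2 at 1.98 and Pdk2 at 3.99.

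The 32 genes together took 0.317% to 0.644% of thinned gene reads in CD150+CD48- cells (median 0.447%) and 0.223% to 0.400% in CD150- cells (median 0.326%), so the ranges overlapped. A gene of the 29 was read after thinning in 64.4% of CD150+CD48- cells and 62.1% of CD150- cells on average, a difference of 2.30 points. Over all genes past the filter these shares were 51.2% and 61.7%, a difference of -10.6 points. Aldoa was the member with the most reads.

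**Figure D1:**
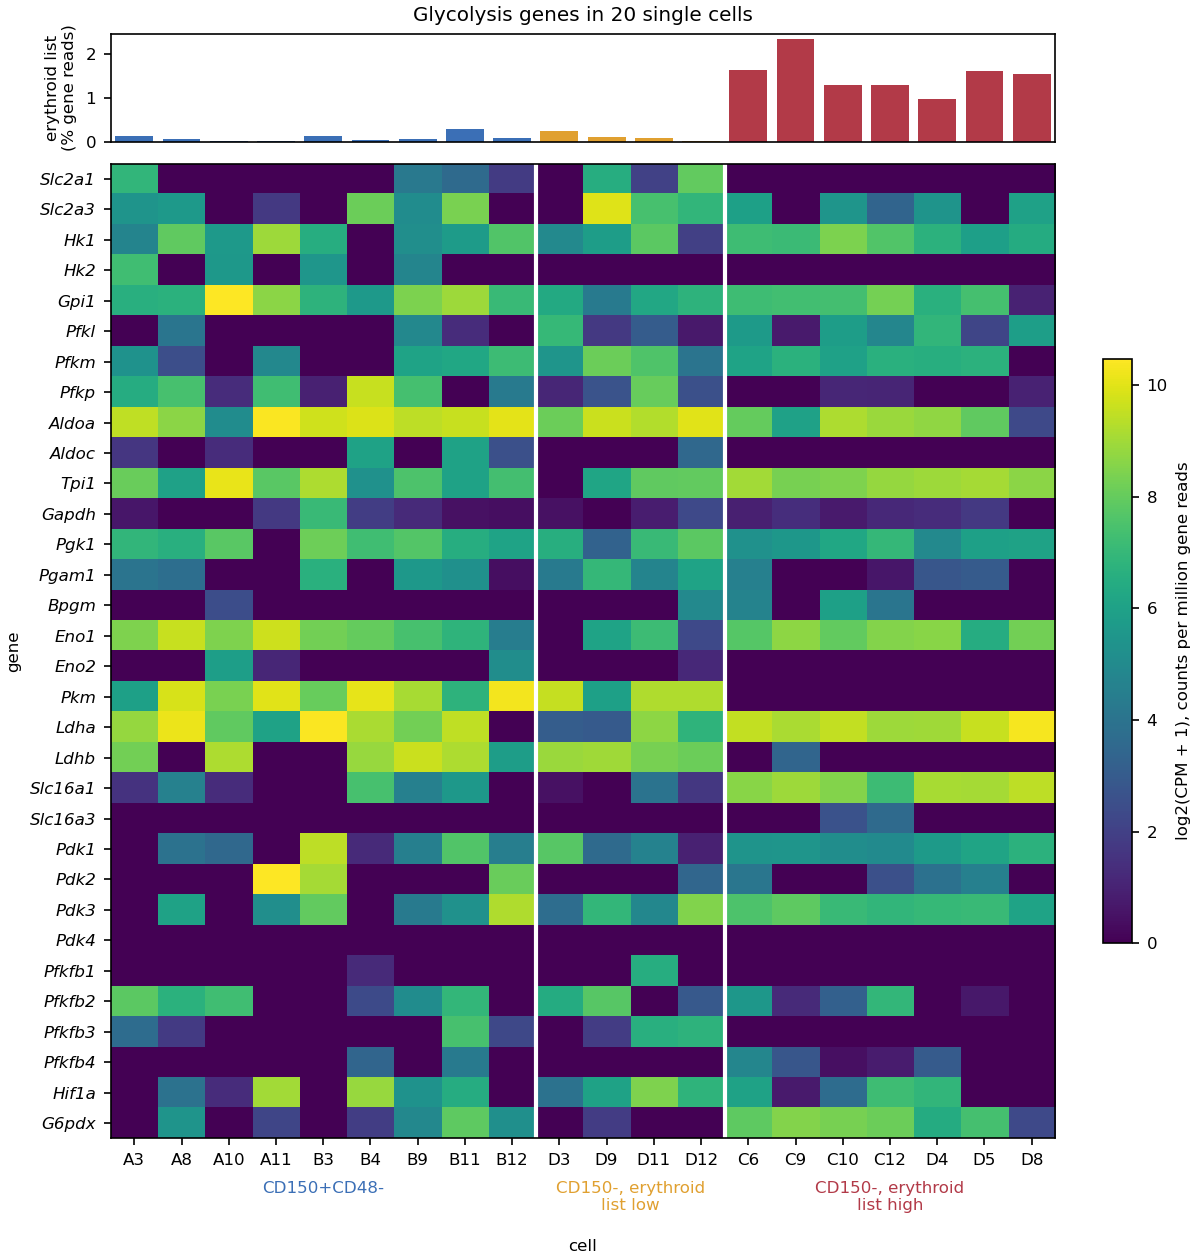
Level of each of the 32 genes (rows, in pathway order) in each of the 20 cells (columns), as log2(CPM + 1) on the colour scale; bars on top give the percent of gene reads in the erythroid list. Pkm and Ldhb are dark in the 7 cells at the right, where Slc16a1 is bright, and so is G6pdx in 6 of them; the exceptions are Ldhb at 9.54 CPM in C9 and G6pdx at 4.01 CPM in D8.

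**Figure D2:**
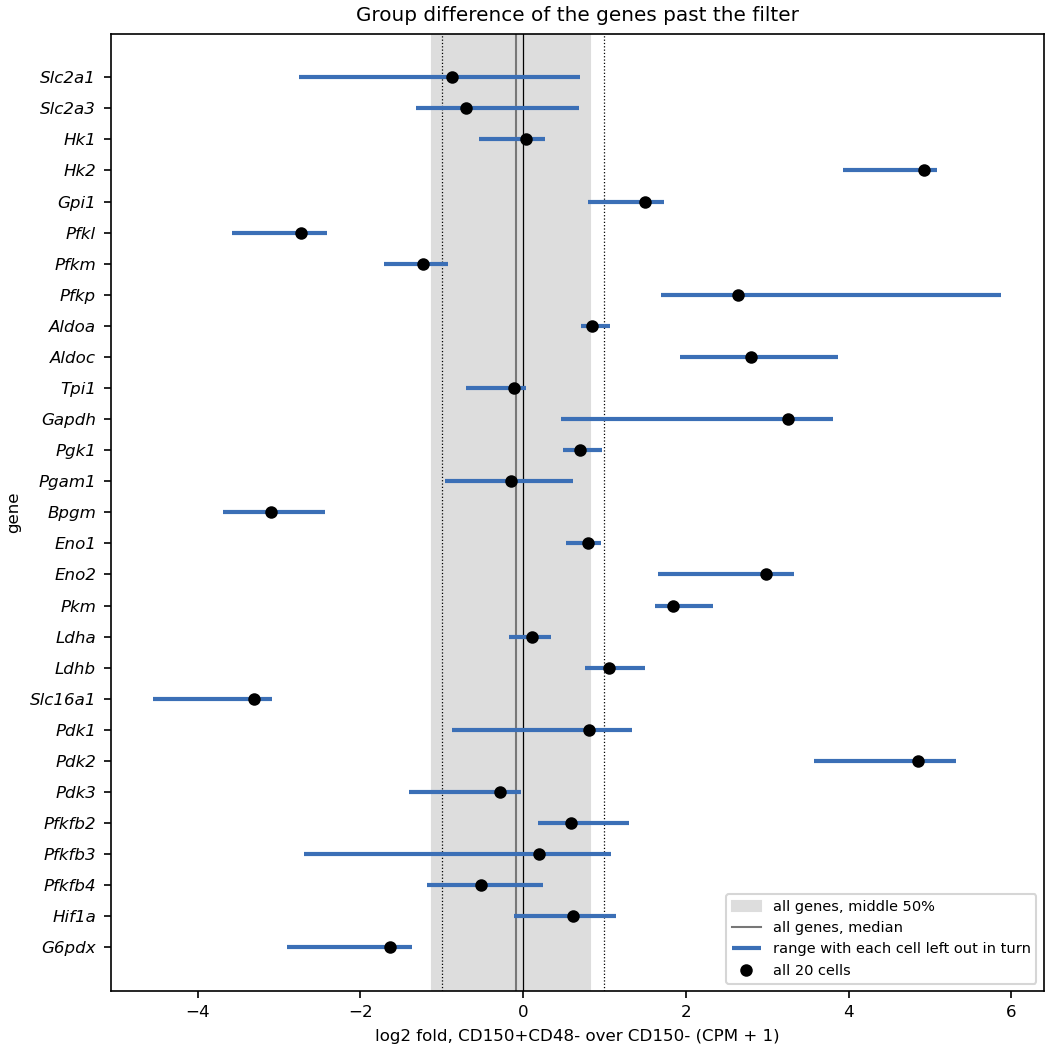
Log2 fold of the 29 genes past the filter, CD150+CD48- over CD150-, with the range obtained when each cell was left out in turn; the grey band holds the middle 50% of all 11365 genes and dotted lines mark 2-fold. Hk2 and Pdk2 lie farthest to the right at 4.93 and 4.86, and Slc16a1 and Bpgm farthest to the left at -3.31 and -3.09.

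Glucose enters through Slc2a1 (GLUT1) and Slc2a3 (GLUT3). Slc2a1 was read in 4 of 9 CD150+CD48- cells, at 119 CPM in A3 and 2.57 to 17.7 CPM in B9, B11 and B12. In CD150- cells it was read at 250 CPM in D12, 92.1 in D9 and 3.11 in D11, and in none of the 7 erythroid-rich cells. Its group levels of 16.7 and 31.3 CPM gave a log2 fold of -0.87, which was -2.75 without A3 and 0.70 without D12. Slc2a3 was read in 6 of 9 CD150+CD48- cells, with a median of 33.3 and a highest value of 334 CPM, and in 8 of 11 CD150- cells, with a median of 42.6 and a highest value of 997 CPM in D9. Its log2 fold of -0.71 turned to 0.69 without D9. Per kilobase of exon, Slc2a3 made up 70.2% of the reads of this pair in CD150+CD48- cells and 67.2% in CD150- cells, and 100% in each of the 5 erythroid-rich cells with a read of either.

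Hexokinase traps glucose as glucose 6-phosphate. Hk2, an inducible isoform and a known target of HIF-1, was read only in CD150+CD48- cells: at 153 CPM in A3, 47.0 in A10, 44.6 in B3 and 26.6 in B9, with no read in the 5 other CD150+CD48- cells or in the 11 CD150- cells. Its group level was 29.5 CPM against 0, which is at least 71.3-fold higher with a floor of 3 reads over the CD150- cells (0.413 CPM). The log2 fold of 4.93 became 3.93 without A3. Hk1, the widely used isoform, was read in 8 of 9 and 11 of 11 cells, at 133 CPM (95% interval 124 to 143) and 130 CPM (122 to 139). The log2 fold of Hk1 was 0.03, and -1.15 with ERCC scaling. Of the reads of Hk1 and Hk2 per kilobase, Hk2 supplied 24.0% in CD150+CD48- cells, and 89.7% in A3. In all 11 CD150- cells, Hk1 supplied 100% of this pair. A further hexokinase gene, Hk3, was not counted in these shares. Hk3 was read in 3 of 9 CD150+CD48- cells at up to 706 CPM. Among CD150- cells it was read in D11 alone, at 510 CPM, where Hk1 was at 231 CPM. The group levels of Hk3 were 110 and 47.1 CPM. Its log2 fold of 1.21 was -0.38 without A10 and 6.80 without D11.

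The Hk2 sequence below is the 250 bases before its RefSeq start on GRCm38.p6, chr6:82774455-82774704, minus strand, 5′ to 3′. It is shown because Hk2 alone among the members past the filter had reads in 1 group only. Outside the members, Ldhd and Trib3 also passed with reads in CD150+CD48- cells only, and Pklr and Sptb with reads in CD150- cells only. The share of all genes with reads in 1 group only was not computed, so whether this is unusual cannot be told. Capitals mark CACCC, a motif bound by KLF factors, and ACGTG, the core of the HIF binding motif, on either strand, so that they also appear as GGGTG and CACGT.
Hk2: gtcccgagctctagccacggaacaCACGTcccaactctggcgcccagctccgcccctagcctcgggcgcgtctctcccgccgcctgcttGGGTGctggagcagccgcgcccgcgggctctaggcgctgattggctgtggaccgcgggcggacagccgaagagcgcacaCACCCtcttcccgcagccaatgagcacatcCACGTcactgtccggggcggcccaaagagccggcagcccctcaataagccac
It holds 2 matches of each. Among 32851 RefSeq promoter windows of 250 bases, 52.0% held CACCC and 16.6% held ACGTG. The members had 50 such windows (31 of 32 genes matched; Slc2a3 had no entry), of which 62% held CACCC and 38% held ACGTG. A match is a description of letters and not of binding.

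Gpi1, which turns glucose 6-phosphate into fructose 6-phosphate, was read in all 20 cells. Its level in CD150+CD48- cells ran from 47.9 to 1386 CPM with the top value in A10, and in CD150- cells from 1.00 to 313 CPM, so the ranges overlapped. The group levels were 338 and 119 CPM, 2.85-fold higher in CD150+CD48- cells (2.63 to 3.09). Without A10 the log2 fold was 0.80, under 2-fold, and with ERCC scaling it was 0.60.

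Phosphofructokinase, the committed step of glycolysis, differed by isoform. Pfkp, the platelet isoform, was read in 8 of 9 CD150+CD48- cells, with values of 770 CPM in B4, 151 to 169 in A8, A11 and B9, 89.5 in A3, 18.3 in B12 and at most 1.52 in A10 and B3. In CD150- cells Pfkp reached 264 CPM in D11, 1.19 to 5.36 CPM in D3, D9 and D12, and at most 1.21 CPM in the 7 erythroid-rich cells. The groups overlapped, and Pfkp was 6.47-fold higher in CD150+CD48- cells (5.50 to 7.65); the log2 fold of 2.64 was 1.69 without B4 and 5.88 without D11. A megakaryocyte and platelet list of 14 genes had 8 of its 10 genes past the filter at least 2-fold higher and 1 lower. The shares of all genes were 21.9% and 27.4%. Of the 8, 7 kept their direction whichever cell was left out. This list had a median log2 fold of 3.12. Its share of gene reads was 0.303% in A8, 0.193% in B4 and 0.104% in A10, at most 0.0322% in the other CD150+CD48- cells and at most 0.0388% in CD150- cells; Gp6 and Clec1b had no read in any cell. Its part in the Pfkp difference was not tested. Pfkl, the liver isoform, went the other way. Pfkl was read in 3 of 9 CD150+CD48- cells, at 1.54 to 28.7 CPM, and in all 11 CD150- cells, from 0.649 to 129 CPM. It was 7.73-fold lower in CD150+CD48- cells (5.33 to 11.6), and its log2 fold of -2.73 was -3.58 without B9. Pfkm, the muscle isoform, was read in 6 of 9 CD150+CD48- cells with a highest value of 142 CPM and in 10 of 11 CD150- cells with a highest value of 280 CPM in D9. It was 2.37-fold lower (2.04 to 2.75), with a log2 fold of -1.22 that fell short of 2-fold without D9 (-0.93), without the 4 cells D3, D9, D11 and D12 (-0.91) and within the letters B and D (-0.80).

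As shares of phosphofructokinase reads per kilobase, Pfkp made up 47.3%, Pfkm 49.6% and Pfkl 3.18% in CD150+CD48- cells, and 4.89%, 78.7% and 16.5% in CD150- cells. Pfkp supplied most of the family in A8, A11 and B4, on 212, 128 and 562 Pfkp reads, and in A10 and B3, where the whole family had 1 and 2 reads. In CD150- cells its share did not pass 25.2%. In the erythroid-rich cells its share was at most 0.851%. Without division by length, Pfkp was ahead of Pfkm in CD150+CD48- cells (77.2% against 20.2%), and its share in CD150- cells was 15.0%. Pfkp windows of 50 bases were shared with another annotated gene at 5.10%, and Pfkm windows at 8.83%.

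**Figure D3:**
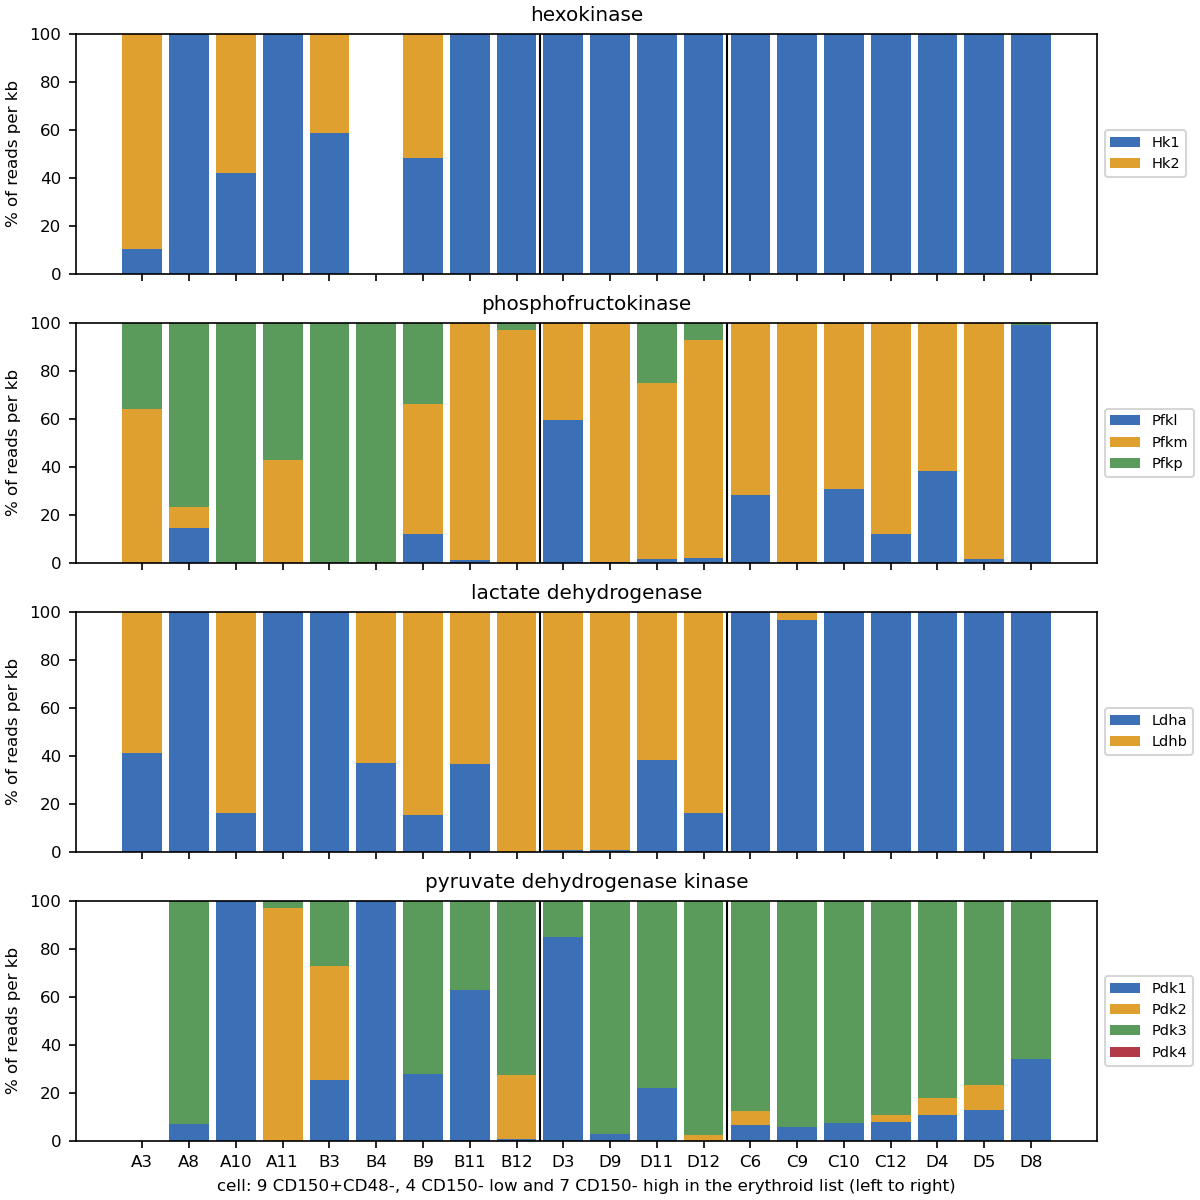
Share of each isoform in the reads per kilobase of its family, in percent, for each of the 20 cells and 4 enzyme families. The hexokinase bars count Hk1 and Hk2 and leave Hk3 out. A missing bar is a cell with no read of the genes counted. Hk2 appears in 4 CD150+CD48- cells, Pfkp takes most of the bar in 5 CD150+CD48- cells (in A10 and B3 on 1 and 2 reads of the family), and Ldha fills at least 96.5% of the bar in the 7 erythroid-rich cells at the right.

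The middle steps run through aldolase, triose phosphate isomerase, Gapdh, phosphoglycerate kinase and mutase, and enolase. Aldoa was read in all 20 cells, at 763 CPM and 422 CPM in the groups, with a log2 fold of 0.85 that was -0.01 with ERCC scaling. The CD150+CD48- cells had 33.3 to 1367 CPM of Aldoa and the CD150- cells 4.01 to 1018 CPM. Aldoc, the brain aldolase, was low: 64.4 CPM in B4 and 64.1 in B11, 1.52 to 4.82 in A3, A10 and B12, and 10.7 in D12 as the only CD150- cell with a read. It was 12.4-fold higher in CD150+CD48- cells on 81 against 8 thinned reads (5.99 to 29.6), and its log2 fold of 2.80 was 1.93 without B4, 2.21 without B11, 3.87 without D12 and 0.46 within the letters A and C. Aldoc made up 1.57% of aldolase reads per kilobase in CD150+CD48- cells.

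Eno1 was read in 9 of 9 and 10 of 11 cells at 353 and 202 CPM, a log2 fold of 0.80 that was -0.61 with ERCC scaling. Eno2, the neuronal enolase, rested on few cells: 57.6 CPM in A10, 34.4 in B12 and 1.18 in A11, and 1.30 in D12. Its 54 against 2 thinned reads gave a level ratio of 33.0 (8.70 to 279), and the log2 fold of 2.98 was 1.66 without A10 and 0.99 as a mean over cells of log2(CPM + 1). Eno2 outweighed Eno1 per kilobase in B12 alone, with 65.7% of the pair.

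Tpi1 was read in 9 of 9 and 10 of 11 cells at 300.3 and 324 CPM, a log2 fold of -0.11 that was -1.33 with ERCC scaling. The erythroid-rich cells had 322 to 539 CPM, the other 4 CD150- cells 0 to 248 CPM and the CD150+CD48- cells 38.3 to 1114 CPM. Pgk1 had a log2 fold of 0.70 (138 and 84.3 CPM), which was -0.22 with ERCC scaling, and 53.9% of its windows were shared with other genes. Pgam1 had a log2 fold of -0.15, which was -0.96 without B3 and 0.62 without D9. Gapdh, an abundant mRNA in most tissues, was listed at 15.2 and 0.689 CPM. B3 alone held 83 of the 90 thinned reads that CD150+CD48- cells gave, which was 135 CPM, and every other cell was at or under 3.90 CPM. Its log2 fold of 3.26 was 0.46 without B3, 0.87 within the letters A and C and 0.96 with ERCC scaling. With 223 other annotated genes sharing 25.1% of its windows, and reads of several alignments kept out of gene counts by the authors' files, the level of Gapdh is uncertain.

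Bpgm makes 2,3-bisphosphoglycerate, which lowers the oxygen affinity of haemoglobin in red cells. It was read in C10 (61.5 CPM), D12 (29.9), C6 (25.1) and C12 (15.8), and in A10 alone among CD150+CD48- cells (4.55 CPM, on 3 reads). Of the 4 CD150- cells with a read, 3 were erythroid-rich and 4 erythroid-rich cells had none. Bpgm was 23.5-fold lower in CD150+CD48- cells on 3 against 86 thinned reads (7.76 to 116), and its log2 fold of -3.09 was -2.43 without C10 and -3.68 without A10.

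Pyruvate kinase makes pyruvate and ATP in the last step of glycolysis. Pkm (chromosome 9, 59656368 to 59679375, plus strand, GRCm38) encodes the M1 and M2 forms by alternative exons, which gene counts do not separate. It was read in 9 of 9 CD150+CD48- cells, from 60.3 to 1244 CPM with a median of 547 CPM, and in D3 at 751, D9 at 60.2, D11 at 598 and D12 at 599 CPM. The 7 erythroid-rich cells had 0 reads of Pkm among 24679423 gene reads; 3 reads would be 0.519 to 3.01 CPM in these cells. Values of the CD150+CD48- cells and of those 4 CD150- cells overlapped, and no erythroid-rich cell reached either. Of all genes past the filter, 0.141% (16 genes) had no read in the 7 cells and a read in each of the 13 others, and Pkm was 1 of these. Over all cells Pkm was 3.59-fold higher in CD150+CD48- cells (3.37 to 3.83), a log2 fold of 1.84. With the 7 cells left out the log2 fold was 0.38, under 2-fold, and with the other 4 left out it was 9.30. Other annotated genes, 8 in all, shared 25.8% of the 50-base windows of Pkm.

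Pklr (chromosome 3, 89136142 to 89146784, plus strand), which encodes the liver and red cell pyruvate kinase, is not among the 32 genes and was a member of a list of other isoforms. It was read in all 7 erythroid-rich cells, on 40 reads in D8, 120 in D4, 164 in C6, 208 in C10, 235 in C9, 265 in D5 and 405 in C12. Those were 36.0 to 156 CPM. None of the 13 other cells had a read, so the 20 cells divided without overlap and no cell held reads of both pyruvate kinase genes. A read in each of the 7 cells and none in the other 13 was seen in 0.202% of all genes past the filter (23 genes). Pklr was at least 83.5-fold lower in CD150+CD48- cells, with a floor of 3 reads over that group (0.505 CPM). The 3′ end of Pklr overlaps Hcn3 on the opposite strand, and the sources do not say whether counting used strand. Hcn3 had 1 to 36 reads in each of the 7 cells and none in the others, fewer than Pklr in every cell.

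Pklr has an upstream promoter known from red cells and a downstream one known from liver, and both starts are in RefSeq. The sequences before them are shown because Pklr was read in exactly the cells without Pkm reads. Gene counts do not tell which start was used. The first is chr3:89135892-89136141 and the second chr3:89136373-89136571 (GRCm38.p6, plus strand, 5′ to 3′, cut where an annotated exon begins). Slc16a1, described next, is shown beside them as the member with the largest log2 fold in the same direction, at chr3:104638414-104638663, plus strand. Capitals mark CACCC, the HIF core and GATA motifs on either strand. The GATA motifs searched were AGATAA as the first form, then AGATAG as another, with TGATAA as the third form and lastly TGATAG, and no match of these overlaps another motif below.
Pklr upstream start: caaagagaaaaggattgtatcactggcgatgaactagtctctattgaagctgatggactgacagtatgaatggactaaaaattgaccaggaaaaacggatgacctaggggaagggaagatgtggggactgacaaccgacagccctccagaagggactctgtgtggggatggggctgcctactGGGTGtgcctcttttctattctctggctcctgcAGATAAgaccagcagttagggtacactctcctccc
Pklr downstream start: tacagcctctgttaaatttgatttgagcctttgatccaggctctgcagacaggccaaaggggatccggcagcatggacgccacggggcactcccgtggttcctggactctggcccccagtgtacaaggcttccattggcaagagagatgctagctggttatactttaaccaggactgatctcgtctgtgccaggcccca
Slc16a1: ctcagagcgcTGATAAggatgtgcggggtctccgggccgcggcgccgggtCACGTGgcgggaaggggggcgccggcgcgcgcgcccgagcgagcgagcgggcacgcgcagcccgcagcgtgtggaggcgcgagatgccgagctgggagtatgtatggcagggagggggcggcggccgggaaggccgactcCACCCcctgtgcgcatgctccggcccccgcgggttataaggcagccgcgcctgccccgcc
The upstream window of Pklr holds 1 GATA motif and 1 CACCC, and the downstream window holds none of the 3. The Slc16a1 window holds 1 GATA motif, 1 CACCC and CACGTG, which reads ACGTG on both strands. Of the 32851 windows, 26.5% held a GATA motif, and of the members' 50 windows 28% did.

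**Figure D4:**
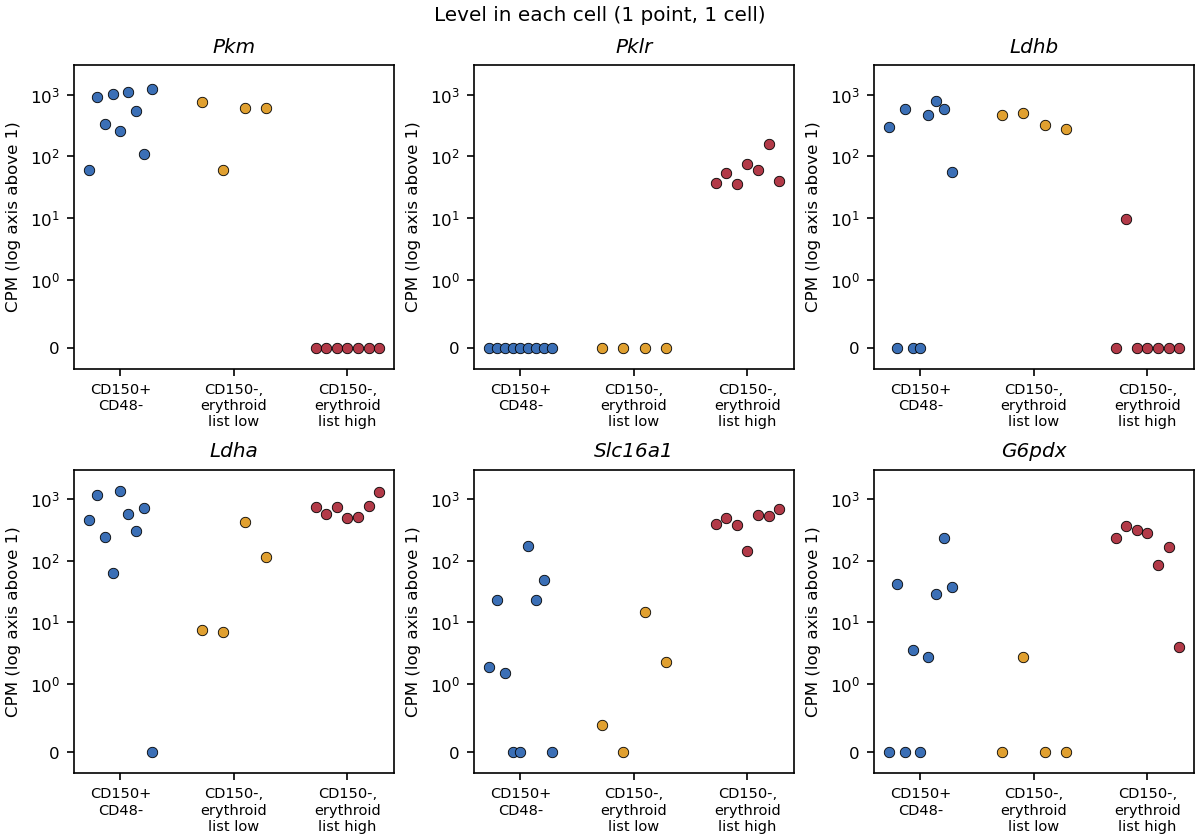
Level in each cell of Pkm, Pklr, Ldhb, Ldha, Slc16a1 and G6pdx in CPM (log axis above 1, 0 at the bottom), with 1 point for 1 cell: 9 CD150+CD48- cells, 4 CD150- cells low and 7 CD150- cells high in the erythroid list. Pkm is at 0 in all 7 cells where Pklr is read, and Slc16a1 runs from 145 to 694 CPM there.

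Lactate dehydrogenase is a tetramer of A and B subunits, of which Ldha favours lactate formation and Ldhb the reverse. Ldhb was read in 6 of 9 CD150+CD48- cells, at 785 CPM in B9, 586 in B11, 583 in A10, 463 in B4, 304 in A3 and 56.2 in B12. It was read in D9 at 511, D3 at 471, D11 at 317 and D12 at 276 CPM, and among the erythroid-rich cells in C9 alone, at 9.54 CPM. Thus 6 of the 7 had no read. Ldhb was 2.08-fold higher in CD150+CD48- cells (1.93 to 2.24), close to the 2-fold line. The log2 fold of 1.05 was 0.70 within the letters B and D and was under 1 when A10, B4, B9, B11 or any of the 7 erythroid-rich cells was left out, and lowest at 0.77 without B9. With all 7 left out it was -0.40. The pseudogene Gm5514 shares 20.99% of the windows of Ldhb and was read at up to 10.6 CPM in CD150+CD48- cells and 38.3 CPM in D12.

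Ldha was read in 8 of 9 and 11 of 11 cells at 551 CPM (532 to 570) and 510 CPM (493.3 to 526.3). The log2 fold was 0.11, and -1.64 with ERCC scaling. The erythroid-rich cells ran from 488 to 1290 CPM, the other 4 CD150- cells from 6.85 to 418 CPM and the CD150+CD48- cells from 0 to 1368 CPM. With the 7 cells left out the log2 fold of Ldha was 2.03. Per kilobase, Ldhb supplied 53.6% of the pair in CD150+CD48- cells and 37.5% in CD150- cells. In the erythroid-rich cells the Ldha share was 96.5% to 100%, while D3, D9, D11 and D12 had 0.632% to 38.5%, so these did not overlap. Ldhb supplied most of the pair in 6 of 9 CD150+CD48- cells. Without division by length Ldha was ahead in CD150+CD48- cells, with 64.6%.

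Slc16a1 (MCT1), which carries lactate and pyruvate across the membrane, was 10.2-fold lower in CD150+CD48- cells (8.73 to 12.0), at 29.1 against 297 CPM. The erythroid-rich cells had 694 CPM in D8, 545 in D4, 536 in D5, 488 in C9, 395 in C6, 371 in C10 and 145 in C12. The other 4 CD150- cells had 0 to 14.8 CPM. The CD150+CD48- cells had 0 to 170 CPM, with the top value in B4, which lies above C12, so the cells overlapped at that point. The log2 fold of -3.31 was -4.55 without B4. With the 7 cells left out the direction turned, to a log2 fold of 1.88. B4 held 111 of the 173 thinned reads of Slc16a1 in CD150+CD48- cells. The fold without both the 7 cells and B4 was not computed. Slc16a3 (MCT4), the exporter of strongly glycolytic cells, was read in C10 (5.19 CPM) and C12 (11.2 CPM) alone and did not pass the filter. Per kilobase, Slc16a1 supplied at least 93.9% of the pair in every cell with a read of either.

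PDK enzymes switch off pyruvate dehydrogenase and so hold pyruvate in the cytosol. Pdk2 was 32.8-fold higher in CD150+CD48- cells (24.96 to 44.1), at 240 against 7.30 CPM. Its reads came from 3 of 9 CD150+CD48- cells, at 1422 CPM in A11, 533 in B3 and 272 in B12, with 0 in the 6 others. In CD150- cells it was read in 5 of 11 cells, at 4.97 to 22.9 CPM, so each of the 3 cells lay above every CD150- cell and the 6 others did not. Without A11 the log2 fold went from 4.86 to 3.58. Pdk1, a target of HIF-1, was read in 7 of 9 and 11 of 11 cells, with 698 CPM in B3 and 0.974 to 214 CPM in CD150- cells. Its log2 fold of 0.81 was -0.87 without B3 and -0.89 with ERCC scaling. Pdk3 was read in 6 of 9 and 11 of 11 cells at 110 and 135 CPM, a log2 fold of -0.29 that was -1.62 with ERCC scaling. Its highest cells were B12 at 599 CPM and D12 at 357 CPM. Pdk4 had no read in any cell; 3 thinned reads over a group would be 0.505 and 0.413 CPM.

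Per kilobase, Pdk3 supplied 84.0% of PDK reads in CD150- cells and most of them in 10 of 11, D3 being the exception at 14.9%. In the erythroid-rich cells its share ran from 65.8% to 94.2%. In CD150+CD48- cells the group shares were 57.2% for Pdk2, 32.5% for Pdk3 and 10.3% for Pdk1. The cells differed among themselves: Pdk3 supplied over 50% in A8, B9 and B12 and Pdk2 in A11. Pdk1 did so in B11, in A10 on 7 PDK reads and in B4 on 1 read. In B3 Pdk2 had the largest share at 47.5%, and A3 had no PDK read at all.

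PFKFB enzymes set the level of fructose 2,6-bisphosphate, the activator of phosphofructokinase. Pfkfb2, the heart isoform, was the main member, with 74.5% of PFKFB reads per kilobase in CD150+CD48- cells and 56.2% in CD150- cells. Its levels of 73.2 and 48.2 CPM gave a log2 fold of 0.59, and -0.25 with the erythroid-rich cells left out. Pfkfb3, the inducible isoform, was read in 4 of 9 CD150+CD48- cells (172 CPM in B11 and at most 12.2 CPM in the others) and in D12 at 108, D11 at 96.1 and D9 at 2.68 CPM. None of the 7 erythroid-rich cells had a Pfkfb3 read. Its log2 fold of 0.19 was -2.70 without B11 and 1.08 without D12. Pfkfb4 was low, read in B11 at 19.2 and B4 at 9.59 CPM and in 5 of the 7 erythroid-rich cells at 0.346 to 27.4 CPM, with a log2 fold of -0.51. Pfkfb1, the liver and muscle isoform, was read in D11 at 91.4 CPM and on 1 read in B4, and did not pass the filter.

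Hif1a, the oxygen-regulated subunit of HIF-1, is controlled mainly at the protein level. It was read in 6 of 9 and 9 of 11 cells, at 124 CPM (115 to 133) and 80.9 CPM (74.4 to 87.7). The highest cells were A11 at 523, B4 at 460 and D11 at 347 CPM, and A3, B3, B12, D5 and D8 had no read. Its log2 fold of 0.61 was -0.11 without A11.

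G6pdx, the first enzyme of the pentose phosphate pathway, takes glucose 6-phosphate away from glycolysis to make NADPH. It was 3.17-fold lower in CD150+CD48- cells (2.75 to 3.66), at 41.1 against 130 CPM. The erythroid-rich cells had 366 CPM in C9, 318 in C10, 279 in C12, 235 in C6, 165 in D5, 85.4 in D4 and 4.01 in D8. The other 4 CD150- cells had 0, apart from 2.68 CPM in D9. The CD150+CD48- cells had 234 CPM in B11 and 0 to 42.4 CPM in the others. With the 7 cells left out the log2 fold turned from -1.64 to 4.58, within the letters B and D it was 0.73, and without B11 it was -2.91. G6pdx (chromosome X, 74409483 to 74429194, minus strand) lies within Ikbkg on the opposite strand, with 16.9% of its windows shared with Ikbkg or G6pd2. Ikbkg was read at 17.6 to 39.9 CPM in C6, C9, C10 and C12, and at 652 CPM in D3, which had no G6pdx read. In D9 and D12 it was at 151 and 137 CPM. Among CD150+CD48- cells Ikbkg was read at 200.01 CPM in B11, 75.9 in A8, 9.40 in B9 and 1.37 in B4. G6pdx was at 42.4 CPM in A8 and 29.0 in B9. Reads of the overlap cannot be told apart without strand.

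With the 7 erythroid-rich cells left out, 13 of 29 genes were at least 2-fold higher in CD150+CD48- cells and 7 at least 2-fold lower, against 33.4% and 22.9% of all genes, with a median log2 fold of 0.63 against 0.20. With the other 4 CD150- cells left out, 17 were at least 2-fold higher and 5 lower, against 31.2% and 26.1% of all genes, with medians of 1.23 and 0.08. Pkm, Ldhb, Slc16a1 and G6pdx were the genes among the 14 whose call ended or whose direction turned without the 7 cells. Gpi1, Pfkp, Pdk2, Hk2, Aldoc, Gapdh, Eno2, Pfkl, Pfkm and Bpgm stayed at least 2-fold different in the same direction. Some of these calls then rested on 1 cell. Among the 4 CD150- cells left, Pfkl was at 129 CPM in D3 and 0.649 to 7.39 CPM in D9, D11 and D12. Bpgm was read in D12 alone of these 4. For Gapdh, B3 held 83 of the 90 thinned reads of CD150+CD48- cells. Without the 7 cells, Eno1 (log2 fold 2.64), Ldha (2.03), Pfkfb4 (1.89) and Tpi1 (1.00) were at least 2-fold higher and Slc2a1 (-2.30), Slc2a3 (-1.96), Pgam1 (-1.38) and Pfkfb3 (-1.22) at least 2-fold lower, which they were not over all 20 cells.

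Other genes of the pathway were counted from lists chosen with earlier results of these data known, against the same 21.9% and 27.4% of all genes. Of 26 other isoforms of uptake and glycolysis, 11 passed the filter, 4 of them at least 2-fold higher and 5 lower, with a median log2 fold of -0.24. Slc2a8, an intracellular glucose transporter, was read at up to 127 CPM in 6 of the 7 erythroid-rich cells and at 0.537 CPM in 1 CD150+CD48- cell, a log2 fold of -4.35. Slc2a9, a urate transporter, was read in 5 of 9 CD150+CD48- cells and 1 CD150- cell (log2 fold 3.91). Ldhd, which uses D-lactate, was read in 4 CD150+CD48- cells at up to 141 CPM and in no CD150- cell, at least 91.3-fold higher. Slc2a8 was at -3.42 without D5, and Slc2a9 at 2.95 without A11 and 4.78 without D11.

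Pyruvate entry into mitochondria had 9 of 10 genes past the filter, with 0 at least 2-fold higher and 3 lower and a median of -0.35. Mpc1, a subunit of the pyruvate carrier, had a log2 fold of -3.01, with its highest value of 197 CPM in the 4 CD150- cells outside the erythroid-rich ones. Dld and Pdhx, parts of the pyruvate dehydrogenase complex, had log2 folds of -1.28 and -1.04. With single cells left out, Mpc1 ranged from -4.65 (B11) to -1.57 (D12), Dld from -2.07 (B3) to -0.99 (D5) and Pdhx from -1.95 (B3) to -0.60 (D11). In the pentose phosphate list, 3 of 9 genes were at least 2-fold higher and 2 lower, with a median of 0.46. Taldo1 and Rpia, of its non-oxidative arm, were lower, at log2 folds of -2.60 and -1.44, and were read in all 11 CD150- cells. Taldo1 ran from 246 to 421 CPM in the erythroid-rich cells and from 21.8 to 245 CPM in the other 4. Prps2, which feeds nucleotide synthesis, and H6pd, of the endoplasmic reticulum, were higher, at log2 folds of 2.04 and 1.40, but Prps2 was at 1.02 without B12, and H6pd at 0.56 without A8 and 2.84 without D12.

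Side branches of glycolysis had 15 of 19 genes past the filter, with 7 at least 2-fold higher and 1 lower and a median of 0.85. Galm, which interconverts sugar anomers, had a log2 fold of 2.97, Phgdh, the entry to serine synthesis, 2.00, and Pgm1, which links glucose 6-phosphate with glycogen, 1.89. Phgdh was read in 6 of 9 CD150+CD48- cells at up to 1228 CPM and in all 7 erythroid-rich cells at 33.5 to 268 CPM. Gfpt1, the entry to the hexosamine pathway, was lower, at -2.22. Left-out cells moved Gfpt1 to -4.35 (B11), Galm to 1.93 (A8) or 3.85 (D11), Phgdh to 1.28 (B3) and Pgm1 to 2.71 (D12).

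Among genes that sense oxygen for HIF, 7 of 10 passed the filter, 0 were at least 2-fold higher and 4 were lower, with a median of -1.46. These were Hif1an (-3.70), Egln2 (-3.45), Hif3a (-2.13) and Vhl (-1.46), which code for inhibitors of HIF or proteins that mark it for removal. Cited2 (0.89) and Arnt (0.59) were higher, under 2-fold, and Arnt did not keep its direction. By cell, the list took a median of 0.0239% of gene reads in CD150+CD48- cells and 0.0197% in CD150- cells. The highest CD150- values of Hif1an (201 CPM), Egln2 (254) and Hif3a (285) lay outside the erythroid-rich cells, and that of Vhl (47.2) within them. Without B11, Hif1an, Egln2, Hif3a and Vhl were at -5.44, -4.48, -5.80 and -3.45. The value nearest to 0 was -3.05 for Hif1an (without D11), -2.57 for Egln2 (D3), -1.39 for Hif3a (D12) and -0.94 for Vhl (C6), under 2-fold. Of HIF target genes outside glycolysis, 11 of 14 passed, with 6 at least 2-fold higher and 2 lower and a median of 1.01. Bnip3, of mitochondrial removal, had a log2 fold of 4.12 and Ndrg1, a stress gene, 2.67. Higd1a, a mitochondrial protein, had -2.14 and Mxi1, a partner of Max, -1.50. Bnip3 was at 3.18 without A8 and 4.99 without C12, Ndrg1 at 2.07 without B11 and 5.65 without D11, Higd1a at -1.15 without D3 and -2.76 without B9, and Mxi1 at -2.29 without B9. Of the 6 higher genes, 2 kept their direction whichever cell was left out.

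All 6 splicing factors of Pkm passed, with 0 at least 2-fold higher and 2 lower and a median of -0.48; Hnrnpa2b1, Srsf3 and Rbm4 did not keep their direction when single cells were left out. Ptbp1, which favours the M2 form, had a log2 fold of -1.09, which was -0.79 without C12, and was read in all 11 CD150- cells. Nek2, a kinase of mitosis, had -5.99 and was read in 7 of 7 erythroid-rich cells, whose share of G2/M reads was high. Of 19 upstream regulators past the filter, 4 were at least 2-fold higher and 2 lower, with a median of 0.31. Ppard had 1.69 and Meis1, an activator of Hif1a that is also in the stem cell list, 1.52. Meis1 ran from 10.3 to 1032 CPM in CD150+CD48- cells, from 189 to 601 CPM in D3, D9, D11 and D12, and at most 14.3 CPM in the erythroid-rich cells. Tsc2 and Akt2, of the insulin and mTOR pathway, had -1.62 and -1.49. The 2-fold difference ended for Ppard without B12 (0.73), for Tsc2 without D8 (-0.81) and for Akt2 without D3 (-0.94).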

How the data were processed

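The data are deposited counts, whole-number reads per gene made by the authors with HTSeq on GRCm38 and R 3.0.2, per the submitters' processing notes; the sources used here give no aligner or annotation. Each cell has 38561 genes and 5 HTSeq summary rows, which were left out of totals with the 51 ERCC rows. The series table of 18464 genes held equal counts. Quartz-Seq has no molecular identifiers, and reads with several alignments were not counted in genes. Groups follow the labels.

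Counts were thinned to 660007 gene reads per cell (seed 20), and a gene passed the filter with 10 or more of these reads in total and reads in 3 or more cells. No test was made, and a 2-fold difference (log2 fold of 1) was set against the share of all genes. Isoform shares are reads per kilobase of merged exons, GENCODE M21. The 32 genes, the lists and the marker genes were chosen with earlier results of these data known. The text names all members. Of each list it names up to 4 genes at least 2-fold different whose direction held whichever cell was left out, by size. From the Pkm splicing factors it also names Hnrnpa2b1, Srsf3 and Rbm4, whose direction did not hold. Hk3 is named as well, as a further hexokinase gene with reads, and so are Cited2 and Arnt, as the higher genes of the oxygen-sensing list. Alternatives covered scaling (ERCC reads, edgeR 4.0.16 TMM, DESeq2 1.42.0 size factors, both for scaling factors only), thinning, pseudocount, filter, title letters and each cell left out. Python 3.11.15 and R 4.3.3 were used, and the steps were tested on simulated data. Sequences are from RefSeq, GRCm38.p6. Single values of some marker genes are not reported here.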

Additional observations from a re-analysis of the deposited data

Results flagged for a closer look

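Within the 9 CD150+CD48- cells, the 29 genes past the filter and their summed share of reads were tested, 30 values in all. In 16 genes the highest cell was set apart from the rest, its gap to the next cell being over 0.493 of the whole range. The usual rate for this limit, about 1 in 20 groups flagged by chance, assumes normally distributed values. Values of single cells are skewed and often 0, and a gene read in 1 cell is always flagged. That rate therefore does not apply to the 16 genes, and the flags only describe where the top cell lies. The 11 CD150- cells are too many for this rule. Unaligned reads were 80.2% in A10, 66.2% in A11 and 46.3% in B4, more than in any other cell. A11 stood out for Pdk2 (1422 CPM, next 533) and Hk1 (487, next 243), A10 for Gpi1 (1386, next 496), Tpi1 (1114, next 577) and Bpgm (4.55, next 0), and A3 for Hk2 (153, next 47.0) and Slc2a1 (119, next 17.7). B3 stood out for Pdk1 (698 CPM, next 196), Gapdh (135, next 2.74) and Pgam1 (100.5, next 47.3), B4 for Pfkp (770, next 169) and Slc16a1 (170, next 47.6), and B12 for Pdk3 (599, next 247). B11 stood out for G6pdx (234 CPM, next 42.4), Pfkfb3 (172, next 12.2) and Pfkfb4 (19.2, next 9.59).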

How the results depend on the processing

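The median log2 fold of 0.59 was -0.22 relative to ERCC reads, 0.67 with TMM factors, 0.10 as a mean over cells of log2(CPM + 1), 0.19 with no filter, 0.39 when 50 reads in 5 cells were asked for, 0.39 without Gapdh, and 1.23 with the 4 CD150- cells low in erythroid reads left out, an alternative chosen after seeing the data, as were leaving out the 7 others and leaving out A10, A11 and B4 (0.53). Leaving out each cell in turn gave 0.28 (without A3) to 0.76 (without B12), with 0.38 without A10 and 0.36 without A11, B3 or B4. The 5 genes at least 2-fold lower became 11 relative to ERCC reads (48.3% of all genes were at least 2-fold lower there), 8 with the letters A and C (36.5% of all genes) and 4 to 8 with each cell left out (8 without B11). The 9 genes at least 2-fold higher became 17 with those 4 cells left out (31.2% of all genes) and 8 to 11 with each cell left out. With the 7 erythroid-rich cells left out, log2 folds turned to -0.40 for Ldhb, 1.88 for Slc16a1 and 4.58 for G6pdx. For Slc16a1, B4 held 111 of the 173 thinned reads of CD150+CD48- cells. G6pdx was also turned, to 0.73, with the letters B and D. The cause of these 4 turns was not tested. Of 957 log2 folds of single genes under alternatives, these 4 were reversals of a gene at least 2-fold different. The difference of the group medians of the summed share, 0.121 points, ran from 0.114 to 0.127 with each cell left out. No paired analysis was possible because the labels name no animal or batch shared between the groups. Numbers in the title codes recur between and within groups, and the labels do not say what they mark. With 1 sample per group the spread between animals is unknown, and depth limits genes of few reads such as Aldoc, Bpgm and Eno2.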
